A study of Homo sapiens with 42 samples.

Results

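The 8 genes described here encode the enzymes that carry the cholesterol pathway from the making of squalene to the removal of the methyl groups at carbon 4 of the sterol ring: FDFT1, SQLE, LSS, CYP51A1, TM7SF2, MSMO1, NSDHL and HSD17B7. They were taken by name from the pathway, not from their values, and are 8 of the 60606 genes in the deposited table. All 8 were above the expression filter of a mean of 1 TPM (an abundance of transcripts scaled for their length and for the library total) and entered the tests. RNA was measured by polyA sequencing in AC16 cells, a human line made by fusing adult ventricular cardiomyocytes with SV40-transformed fibroblasts.

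The question behind the series is what variants of RPL3L, the heart and skeletal muscle paralog of the ribosomal protein RPL3, do when RPL3 itself is reduced. Each of the 10 groups had 3 libraries. In 7 groups the cells carried a hairpin against RPL3 and an RPL3L construct with 1 amino acid change (G27D, R161W, T189M, P291L, D308N or D308V, and R343W), both induced by doxycycline. RPL3L-WT cells carried the same hairpin with the unchanged RPL3L, shRPL3 cells the hairpin alone, and shScramble cells a scrambled hairpin. Every group was given doxycycline at 1 ug/ml. Cells with a hairpin were kept by hygromycin selection after lentiviral transduction, and construct cells were additionally sorted for BV421 fluorescence, so that a line is a selected pool whose parent is the hairpin line. The labels do not tie a replicate to a culture of its own, and the p-values therefore rest on a spread between libraries that may be technical.

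The defining genes of cardiomyocytes were near 0: 1 of 12 listed markers, GATA4, averaged above 1 TPM, and the 12 summed to 2.28 to 6.84 TPM per library, against 4049 to 6023 TPM for 9 fibroblast markers. The contractile genes TNNT2, MYH6, MYH7 and ACTC1 averaged 0.118, 0.0273, 0.00449 and 0.0875 TPM, although the labelled cell type is cardiomyocyte-like. RPL3 was at 539, 499.6 and 569.8 TPM in shRPL3 cells and 1565, 1534 and 1611 TPM in shScramble cells, but it was at 1059, 1686 and 1570.1 TPM in the libraries labelled R161W and 779.7, 802 and 1246 TPM in those labelled T189M, where the label calls for the hairpin. The third shRPL3 library held 121 TPM of RPL3L, against 0.0290 and 0.0353 TPM in the other 2. Last, 6 of the 30 libraries (RPL3L-WT 1 and 2, G27D 3, R161W 1, T189M 1 and 2) stood apart from the other 24 along the first principal component of 334 pseudogenes, by a gap of 14.0 where the next widest was 2.00. The labels do not name this difference. The 24 are called the first kind and the 6 the second kind below, and comparisons that touch the 6 are given for the pooled libraries and with kind as a term of the model (within kinds). That term is 1 shift per gene, taken as the same in all groups. P291L, D308N, D308V, R343W, shRPL3 and shScramble cells have first-kind libraries only. Their values within kinds against RPL3L-WT cells therefore lean on a shift estimated from the groups that hold both kinds. Because these are bulk libraries, fewer cells expressing a gene and less RNA per cell cannot be told apart.

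Cholesterol is built from acetyl groups through mevalonate and farnesyl pyrophosphate, and the enzymes described here start where the pathway commits to sterols. FDFT1 (squalene synthase) joins farnesyl units into squalene, SQLE (squalene epoxidase, a control point of the pathway) oxidises it, and LSS (lanosterol synthase) closes the rings. CYP51A1 removes a methyl group from lanosterol, TM7SF2 reduces the double bond that this leaves, and MSMO1, NSDHL and HSD17B7 act in turn on the methyl groups at carbon 4: MSMO1 oxidises them, NSDHL removes the oxidised carbon and HSD17B7 reduces the ketone that remains. The genes are textbook targets of SREBP-2, a membrane-bound transcription factor that is cut and released to the nucleus when the sterol content of the endoplasmic reticulum falls. Promoters bound by SREBP usually carry a sterol regulatory element together with sites for the co-activators NF-Y and Sp1.

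The 250 bases before the RefSeq start (GRCh38.p14) were found for 6 of the 8 genes, LSS, CYP51A1, TM7SF2, MSMO1, NSDHL and HSD17B7. RefSeq and GENCODE, from which the gene positions given with the values were taken, do not place all the starts alike. Of the 250 bases, 50 lie inside the GENCODE gene for LSS, 250 for CYP51A1 and 27 for TM7SF2. For MSMO1 46 lie inside it, for NSDHL 96 and for HSD17B7 0. The 250 bases of each gene were searched on both strands for TCACNCCA (the core of a sterol regulatory element), CCAAT (NF-Y) and GGGCGG (Sp1). TCACNCCA was in 1 of the 6, MSMO1, CCAAT in 5, all but CYP51A1, and GGGCGG in 5, all but NSDHL. A longer sterol element string was in none of the 6. Over the 21016 RefSeq promoters of protein-coding genes of this length, TCACNCCA was in 3.04%, CCAAT in 32.7% and GGGCGG in 54.4%; over all 35116 RefSeq promoters the shares were 3.20%, 32.0% and 42.6%. Promoters of 2 genes are shown because they hold the most CCAAT matches: MSMO1, whose level differed most between shRPL3 and shScramble cells, with 4 and the TCACNCCA match, and NSDHL, with 5, of which 1 pair shares letters on opposite strands. Capitals mark matches of TCACNCCA and CCAAT, shown as the reverse complement where the match is on the other strand, and each sequence is read 5′ to 3′ along its gene.

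MSMO1, chr4:165327419-165327668, plus strand: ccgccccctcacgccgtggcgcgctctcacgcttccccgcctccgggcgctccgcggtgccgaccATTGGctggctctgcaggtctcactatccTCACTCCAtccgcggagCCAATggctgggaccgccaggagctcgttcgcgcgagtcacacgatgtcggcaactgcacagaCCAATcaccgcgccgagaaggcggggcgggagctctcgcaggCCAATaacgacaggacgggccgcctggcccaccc

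NSDHL, chrX:152830813-152831062, plus strand: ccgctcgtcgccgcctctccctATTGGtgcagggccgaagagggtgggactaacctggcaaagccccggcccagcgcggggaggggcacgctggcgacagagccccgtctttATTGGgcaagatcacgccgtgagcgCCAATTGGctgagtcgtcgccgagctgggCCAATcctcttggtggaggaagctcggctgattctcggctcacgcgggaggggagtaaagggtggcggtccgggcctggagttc

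A match is a string of letters and not a measured site, and the letters missing from a window say nothing of binding outside it.

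Across the 10 groups, all 8 genes had their highest mean in shScramble cells and their second highest in the libraries labelled R161W. The lowest mean was in D308N cells for FDFT1, SQLE, CYP51A1, MSMO1 and HSD17B7, in G27D cells for LSS and NSDHL, and in D308V cells for TM7SF2. shScramble stood apart from the next group for each gene, but the rest of the order was less firm. Of the 72 pairs of groups that neighbour each other in the order of a gene's means, those with shScramble included, 46 had libraries that overlapped. The lowest group stood apart from its neighbour for FDFT1 and SQLE only. The libraries labelled R161W overlapped those of the group next below for FDFT1, SQLE, LSS and CYP51A1. Summed over the 8 genes, the level was 337 ± 6.59 TPM in P291L cells, 252 ± 13.6 TPM in G27D cells, 598 ± 57.7 TPM in the libraries labelled R161W, 449 ± 49.6 TPM in those labelled T189M, 219 ± 2.46 TPM in D308N, 262 ± 3.83 TPM in D308V, 347 ± 14.5 TPM in R343W, 333 ± 45.2 TPM in RPL3L-WT, 413 ± 9.97 TPM in shRPL3 and 1339 ± 17.3 TPM in shScramble cells (SD, n = 3 each). FDFT1 was the most abundant of the 8 and TM7SF2 the least in each group's means.

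**Figure D1:**
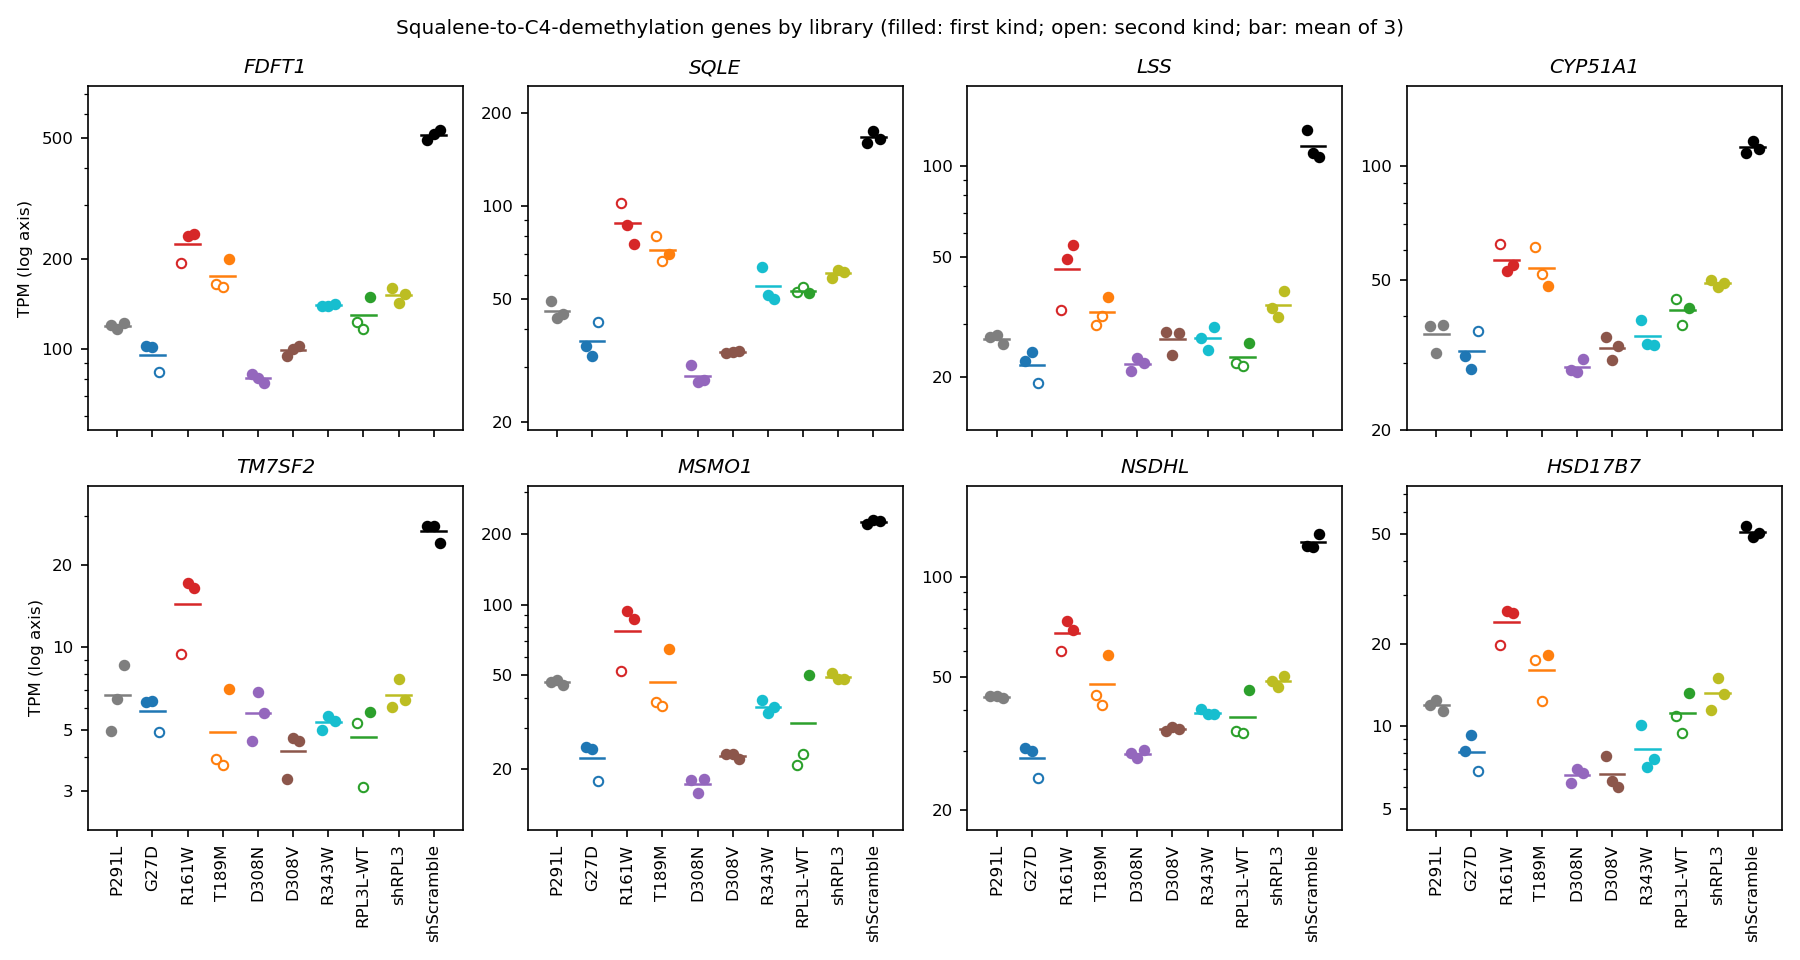
Level of each of the 8 genes (TPM, log axis) in the 3 libraries of each of the 10 groups, with a bar at the group mean; filled points are libraries of the first kind and open points of the second. shScramble libraries lie above all others for each gene, and those labelled R161W come next by mean.

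The first comparison asks what the hairpin against RPL3 did in cells with no RPL3L construct by label. All 8 genes fell in shRPL3 cells against shScramble cells, to between 21.8% (MSMO1) and 43.6% (CYP51A1) of the shScramble mean, with a median over the 8 of 29.6%. For comparison, 18.0% of the 14426 genes tested fell at the same threshold, an adjusted p under 0.05 (limma on log2(TPM + 1), Benjamini-Hochberg over all genes tested), and the all-gene median on the log2 scale was -0.01. No shRPL3 library reached the lowest shScramble library for any of the 8, which held for 27.7% of all genes tested.

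At the head of the branch, FDFT1 (chr8:11795573-11839309, plus strand, GRCh38) had 160.3, 143 and 152 TPM in shRPL3 cells, against 494, 518 and 533 TPM in shScramble cells. The shRPL3 libraries lay close together and far below the others, with a log2 change of -1.76 (SE 0.10, adjusted p = 2.92e-12). SQLE (chr8:124998497-125022283, plus strand) had 58.4, 62.0 and 61.1 TPM in shRPL3 cells and 160.3, 175 and 165 TPM in shScramble cells. Its log2 fold change was -1.45 (SE 0.10, adjusted p = 2.31e-10), smaller than that of FDFT1. LSS (chr21:46188141-46228824, minus strand) had 33.7, 31.7 and 38.4 TPM in shRPL3 cells and 132, 110.3 and 107 TPM in shScramble cells. The first shScramble library was the highest of the 3, and the third shRPL3 library the highest of its own. The log2 fold change of LSS was -1.72 (SE 0.14, adjusted p = 1.17e-09).

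Past lanosterol, CYP51A1 (chr7:92112151-92134803, minus strand) had 49.8, 47.7 and 48.9 TPM in shRPL3 cells and 108, 116 and 111 TPM in shScramble cells. At -1.18 (SE 0.10, adjusted p = 1.64e-09) this was the smallest log2 fold change of the 8. TM7SF2 (chr11:65111845-65116384, plus strand), the sterol reductase, was the least abundant, with 6.08, 7.65 and 6.43 TPM in shRPL3 cells and 27.8, 27.6 and 24.0 TPM in shScramble cells. Its log2 fold change of -1.83 (SE 0.23, adjusted p = 1.09e-06) came with a wider error than those of FDFT1, SQLE and CYP51A1, whose SE was 0.10.

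In the carbon-4 demethylation steps, MSMO1 (chr4:165327623-165343160, plus strand) had 51.0, 48.1 and 48.1 TPM in shRPL3 cells and 220.1, 229 and 227 TPM in shScramble cells. This gave the largest log2 fold change of the 8, -2.18 (SE 0.24, adjusted p = 1.86e-07). MSMO1 made up 11.9% ± 0.358 of the summed level of the 8 genes in shRPL3 cells, against 16.8% ± 0.161 in shScramble cells (SD, n = 3 each), while CYP51A1 made up 11.8% ± 0.108 in shRPL3 cells and 8.36% ± 0.244 in shScramble cells. NSDHL (chrX:152830967-152869729, plus strand) had 48.6, 46.9 and 50.4 TPM in shRPL3 cells and 123, 122 and 134 TPM in shScramble cells, on the log2 scale a change of -1.36 (SE 0.11, adjusted p = 1.34e-09). HSD17B7 (chr1:162790702-162812817, plus strand) had 11.5, 15.0 and 13.2 TPM in shRPL3 cells and 53.7, 49.0 and 50.5 TPM in shScramble cells, on the log2 scale a change of -1.88 (SE 0.15, adjusted p = 1.25e-09). Its pseudogene copy HSD17B7P2 was listed at 1.08 ± 0.394 TPM in shRPL3 cells and 4.39 ± 0.738 TPM in shScramble cells (SD, n = 3 each). Reads shared by gene and copy could have been split between them, so the exact level of HSD17B7 is uncertain. Without the third shRPL3 library, the one holding RPL3L, all 8 were again past the threshold and lower.

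**Figure D2:**
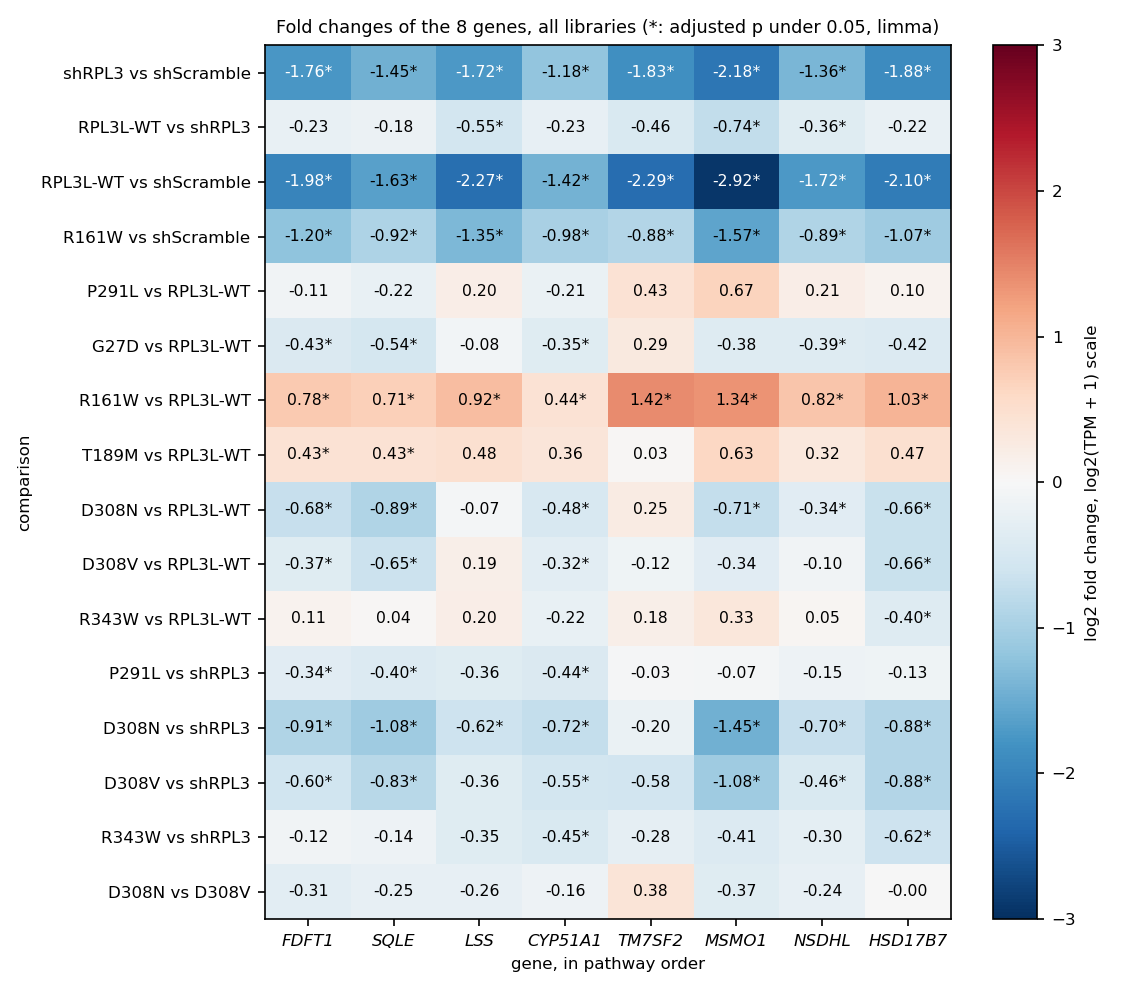
Log2 fold change (first-named group over second, log2(TPM + 1) scale, all libraries) of the 8 genes, left to right in pathway order, in the 16 comparisons; an asterisk marks an adjusted p under 0.05 in limma. The rows against shScramble are negative in all 8 genes, the libraries labelled R161W against RPL3L-WT are positive in all 8, and D308N against shRPL3 carries 7 asterisks.

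The next comparison asks where the genes stood once unchanged RPL3L was expressed over the hairpin. All 8 were lower in RPL3L-WT than in shScramble cells, both pooled (background 34.6% of genes lower) and within kinds (29.1%). Pooled log2 fold changes ran from -1.42 (CYP51A1) to -2.92 (MSMO1), against an all-gene median of -0.18. Within kinds they ran from -1.49 (NSDHL) to -2.39 (MSMO1). FDFT1, for example, had 123, 117 and 149.8 TPM in RPL3L-WT cells, where the third value is the first-kind library, and 494 to 533 TPM in shScramble cells.

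Set against shRPL3 cells, RPL3L-WT cells differed less, and which genes passed the threshold turned on the kind of library and on the scaling. Pooled, LSS, MSMO1 and NSDHL were lower in RPL3L-WT cells, 3 of 8 where 30.2% of all genes were lower and the all-gene median was -0.19. The pooled count is near the share over all genes and does not set the 8 apart. Within kinds, SQLE, LSS and CYP51A1 were lower, again 3 of 8, where the background was 20.1%. LSS was the gene called both ways, at -0.55 (SE 0.14, adjusted p = 0.00374) pooled and -0.32 (SE 0.10, adjusted p = 0.0239) within kinds. It had 22.3, 21.8 and 25.8 TPM in RPL3L-WT cells and 33.7, 31.7 and 38.4 TPM in shRPL3 cells, and no library overlapped. MSMO1 shows the dependence: it had 20.8, 23.1 and 50.2 TPM in RPL3L-WT cells and 51.0, 48.1 and 48.1 TPM in shRPL3 cells, so the 1 first-kind RPL3L-WT library lay among the shRPL3 libraries and the 2 of the second kind lay far below. Its log2 fold change was -0.74 pooled (adjusted p = 0.0196), -0.21 within kinds (adjusted p = 0.108) and 0.03 with first-kind libraries alone. With first-kind libraries alone, LSS was the 1 gene of 8 lower in RPL3L-WT cells (background 9.96% of genes lower), at -0.40, and the lone RPL3L-WT library is then assumed to vary like the other groups. Without RPL3L-WT 1 or without RPL3L-WT 2, the pooled count was 1 of 8. It was also 1 of 8 with median-ratio scaling, which set the all-gene median near 0 and left 1697 of 14426 genes lower. The gene was LSS, at -0.34 (limma, adjusted p = 0.0255).

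The 2 kinds of library did not differ alike over the 8 genes. Within the 4 groups that hold both kinds, the mean of second-kind libraries over that of first-kind libraries was 0.802 to 0.826 for FDFT1, 0.641 to 0.853 for LSS, 0.542 to 0.771 for TM7SF2, 0.438 to 0.718 for MSMO1, 0.735 to 0.838 for NSDHL and 0.758 to 0.821 for HSD17B7. SQLE was higher in the second kind, at 1.02 to 1.26, and CYP51A1 was between 0.979 and 1.21. A pooled value against RPL3L-WT, in which 2 of 3 libraries are of the second kind, holds part of these ratios. A value within kinds assumes 1 shift per gene in all groups, but the ratio of MSMO1 was 0.438 in RPL3L-WT and 0.718 in G27D cells.

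**Figure D3:**
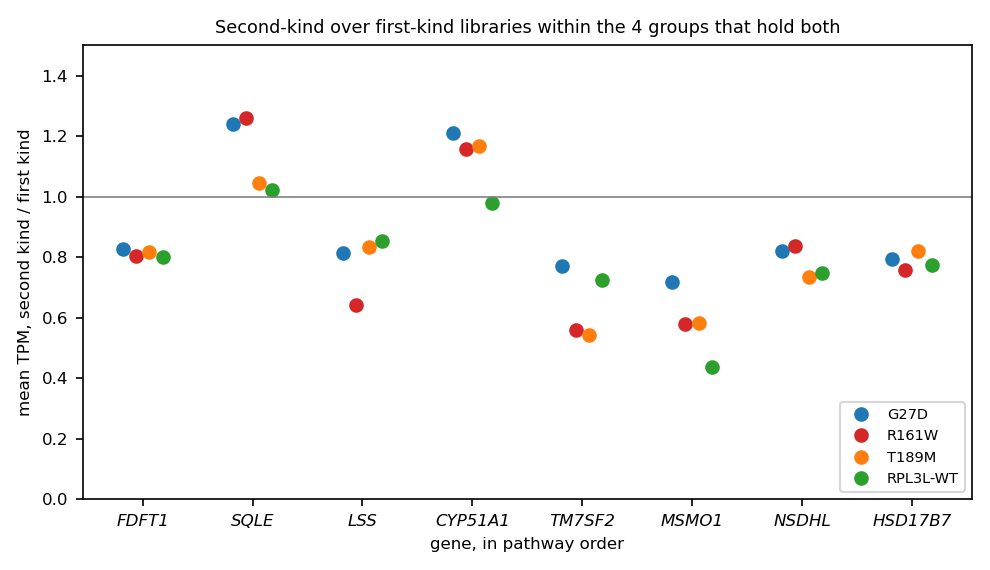
Ratio of the mean TPM of second-kind libraries to that of first-kind libraries within G27D, R161W, T189M and RPL3L-WT cells, for the 8 genes left to right in pathway order; the grey line marks a ratio of 1. FDFT1, LSS, TM7SF2, MSMO1, NSDHL and HSD17B7 lie below the line in all 4 groups, and SQLE above it.

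The variants were compared with RPL3L-WT cells, which carry the same hairpin. The libraries labelled R161W stood out upward. All 8 genes were higher in them than in RPL3L-WT cells, pooled (12.6% of all genes higher), within kinds (16.1%), and without any 1 of their libraries. Every library labelled R161W was above every RPL3L-WT library for all 8, which held for 14.0% of all genes tested. FDFT1 had 193, 238 and 241 TPM in the libraries labelled R161W and 123, 117 and 149.8 TPM in RPL3L-WT cells. In both groups the second-kind libraries were the lower ones, and within kinds the log2 fold change was 0.68 (SE 0.04, adjusted p = 1.84e-11). MSMO1 had 52.0, 93.7 and 86.5 TPM in the libraries labelled R161W and 20.8, 23.1 and 50.2 TPM in RPL3L-WT cells, with 1.08 (SE 0.09, adjusted p = 4.49e-09) within kinds. TM7SF2 had 9.43, 17.2 and 16.5 TPM in the libraries labelled R161W and 5.29, 3.10 and 5.80 TPM in RPL3L-WT cells. At 1.23 (SE 0.17, adjusted p = 9.66e-06) it had the largest log2 fold change of the 8 within kinds, and CYP51A1 the smallest, at 0.49 (SE 0.08, adjusted p = 0.00012). Median-ratio scaling, which set the all-gene median near 0, took CYP51A1 to an adjusted p of 0.0636 in the pooled fit. RPL3 itself was higher in the libraries labelled R161W, by a log2 fold change of 1.25 within kinds (adjusted p = 2.78e-17); its part in the result was not tested.

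A second comparison set the libraries labelled R161W against shScramble cells, since RPL3 in 2 of the 3 was at the shScramble level. All 8 genes were still lower in the libraries labelled R161W (16.3% of all genes lower pooled, 20.4% within kinds), at 48.6% of the shScramble mean in the median gene. In R161W 2 and R161W 3, with RPL3 at 1686 and 1570.1 TPM, the 8 genes summed to 638 and 624 TPM, against 1319.5, 1348 and 1351 TPM in shScramble libraries with RPL3 at 1565, 1534 and 1611 TPM. Libraries with like RPL3 levels differed in the summed level of the 8 genes, but R161W 2 and R161W 3 also held 3048 and 3373 TPM of RPL3L. The parts of RPL3, construct and line cannot be told apart here. MSMO1 was farthest from shScramble cells, with a log2 change of -1.57 (SE 0.24, adjusted p = 4.07e-05) pooled and -1.31 (SE 0.09, adjusted p = 7.48e-11) within kinds. TM7SF2 was nearest, at -0.88 (SE 0.23, adjusted p = 0.0069) pooled and -0.69 (SE 0.17, adjusted p = 0.00272) within kinds.

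**Figure D4:**
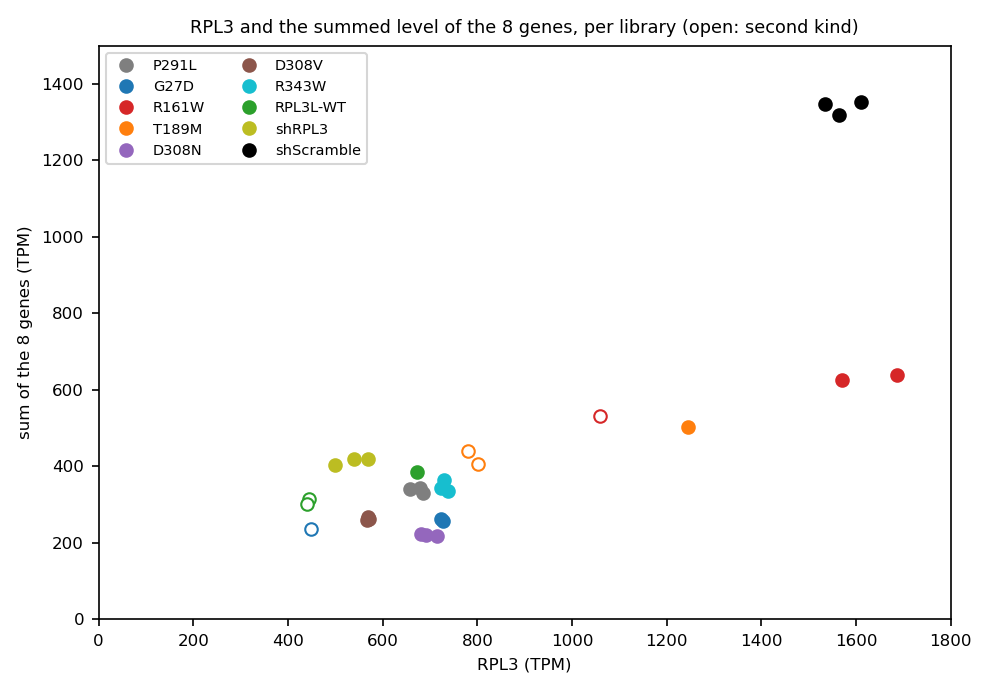
Summed level of the 8 genes (TPM) against RPL3 (TPM) in each of the 30 whole-cell libraries, coloured by group, with open points for libraries of the second kind. The libraries R161W 2 and R161W 3 lie under the 3 shScramble libraries at similar RPL3, and libraries with RPL3 of 658 to 737 TPM spread from 217 TPM (D308N 2) to 385 TPM (RPL3L-WT 3).

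In the libraries labelled T189M, fewer of the 8 genes passed the threshold. Pooled, FDFT1 and SQLE were higher than in RPL3L-WT cells, 2 of 8 where 1.39% of all genes were higher. Within kinds 7 of 8 were higher (7.51%), with log2 fold changes from 0.32 (NSDHL) to 0.63 (MSMO1). TM7SF2 was the exception, at 0.03 (SE 0.16, adjusted p = 0.934) with a 95% interval of -0.31 to 0.37. Both groups have 2 libraries of the second kind and 1 of the first, so kind as a term left the fold changes as they were and narrowed the SE. SQLE had 80.2, 66.3 and 70.0 TPM in the libraries labelled T189M and 52.7, 54.6 and 52.5 TPM in RPL3L-WT cells, without overlap. MSMO1 had 38.5, 37.1 and 64.9 TPM in the libraries labelled T189M and 20.8, 23.1 and 50.2 TPM in RPL3L-WT cells, where the ranges overlap but the libraries of like kind do not. The count was sensitive to single libraries: it was 0 of 8 without RPL3L-WT 1 or without RPL3L-WT 2, 7 of 8 without RPL3L-WT 3, 1 of 8 without T189M 1, and 2 of 8 without T189M 3, the library with the highest RPL3 of its group.

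D308N cells had the lowest mean of 5 of the 8 genes. Pooled, FDFT1, SQLE, CYP51A1, MSMO1, NSDHL and HSD17B7 were lower in D308N than in RPL3L-WT cells, 6 of 8 where 9.48% of all genes were lower and the all-gene median was 0.13. Within kinds LSS joined them, giving 7 of 8 (12.8%). MSMO1 had 18.0, 15.8 and 18.2 TPM in D308N cells and 20.8, 23.1 and 50.2 TPM in RPL3L-WT cells. All D308N libraries were below all RPL3L-WT libraries, and the nearest were the second-kind ones; the log2 fold change was -0.71 pooled (adjusted p = 0.0247) and -1.24 within kinds (adjusted p = 7.02e-10). FDFT1 had 83.0, 80.2 and 77.3 TPM in D308N cells and 123, 117 and 149.8 TPM in RPL3L-WT cells, with -0.68 (SE 0.10, adjusted p = 1.34e-05) pooled and -0.88 (SE 0.04, adjusted p = 2.89e-13) within kinds. TM7SF2 had 4.55, 6.90 and 5.78 TPM in D308N cells and 5.29, 3.10 and 5.80 TPM in RPL3L-WT cells, and its log2 fold change was 0.25 pooled (95% interval -0.22 to 0.72) and -0.12 within kinds (-0.50 to 0.26), past the threshold in neither.

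D308V cells, with another change at the same residue, had lower levels of some of the same genes. FDFT1, SQLE, CYP51A1 and HSD17B7 were lower than in RPL3L-WT cells, 4 of 8 pooled (9.03%, all-gene median 0.11). Within kinds the count was 6 of 8 (12.7%): FDFT1, SQLE, TM7SF2, MSMO1, NSDHL and HSD17B7. CYP51A1, at -0.21 within kinds, was no longer past the threshold (adjusted p = 0.0855). LSS was at 0.19 pooled (95% interval -0.09 to 0.47) and -0.04 within kinds (-0.26 to 0.17), past the threshold in neither. HSD17B7 had 7.80, 6.33 and 6.03 TPM in D308V cells and 11.0, 9.46 and 13.2 TPM in RPL3L-WT cells, on the log2 scale a change of -0.66 (SE 0.15, adjusted p = 0.00193) pooled.

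Set directly against each other, D308N and D308V cells showed no gene of the 8 past the threshold pooled, where 0.866% of all genes were lower in D308N; at an unadjusted p under 0.05, 3 of the 8 differed, each lower in D308N, as did 1745 of all genes in either direction. With kind as a term, which here only changes the estimate of the spread since both groups are of the first kind, FDFT1 (-0.31), MSMO1 (-0.37) and NSDHL (-0.24) were lower in D308N, 3 of 8 where 4.19% of all genes were. FDFT1 had 83.0, 80.2 and 77.3 TPM in D308N cells and 95.2, 101 and 103 TPM in D308V cells, without overlap. HSD17B7 had 6.25, 6.99 and 6.77 TPM in D308N cells and 7.80, 6.33 and 6.03 TPM in D308V cells, with a 95% interval of the log2 difference of -0.31 to 0.30. TM7SF2 was the 1 gene of the 8 with a positive value, 0.38, and an interval of -0.09 to 0.85.

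G27D cells were lower than RPL3L-WT cells in FDFT1, SQLE, CYP51A1 and NSDHL, 4 of 8 pooled (1.77% of all genes lower). Within kinds MSMO1 and HSD17B7 were lower too, giving 6 of 8 (6.02%). NSDHL had 30.8, 30.2 and 25.0 TPM in G27D cells, of which the third is the second-kind library, and 34.5, 34.0 and 45.7 TPM in RPL3L-WT cells. Within kinds its log2 fold change was -0.50 (SE 0.05, adjusted p = 1.30e-07). MSMO1 had 24.9, 24.4 and 17.7 TPM in G27D cells and 20.8, 23.1 and 50.2 TPM in RPL3L-WT cells. Each kind was lower in G27D cells, and the log2 fold change was -0.38 (SE 0.24, adjusted p = 0.42) pooled and -0.64 (SE 0.09, adjusted p = 2.84e-05) within kinds. LSS was at -0.20 (95% interval -0.40 to -0.00) and TM7SF2 at 0.10 (-0.25 to 0.45) within kinds, neither past the threshold. Without RPL3L-WT 1, G27D 1 or G27D 2, the pooled count was 2 of 8.

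P291L and R343W cells had the fewest genes past the threshold against RPL3L-WT cells. In P291L cells 0 of 8 genes were past the threshold pooled (1.09% of all genes lower); at an unadjusted p under 0.05, 3 of the 8 and 4051 of all genes differed in either direction. Within kinds FDFT1 was lower in P291L cells, at -0.31 (SE 0.04, adjusted p = 0.00027), 1 of 8 where 1.16% of all genes were lower. FDFT1 had 121, 117 and 123 TPM in P291L cells and 123, 117 and 149.8 TPM in RPL3L-WT cells. Without RPL3L-WT 3, 2 of 8 were called, both higher in P291L cells. In R343W cells HSD17B7 was lower, 1 of 8 pooled (9.19%, all-gene median 0.13), at -0.40 (SE 0.15, adjusted p = 0.043). Within kinds HSD17B7 (-0.61, SE 0.13, adjusted p = 0.000801) and NSDHL (-0.17, SE 0.05, adjusted p = 0.0139) were lower, 2 of 8 (12.6%). HSD17B7 had 10.1, 7.11 and 7.64 TPM in R343W cells and 11.0, 9.46 and 13.2 TPM in RPL3L-WT cells, overlapping in 1 library of each group. The pooled count was 0 of 8 without RPL3L-WT 1, R343W 2 or R343W 3, and 2 of 8 without R343W 1.

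P291L, D308N, D308V and R343W could also be set against shRPL3 cells, in which all libraries are of the first kind and which share the hairpin but carry no RPL3L construct by label. The comparisons share the shRPL3 libraries. In D308N cells all but TM7SF2 were lower, 7 of 8 (12.4% of all genes lower, all-gene median -0.05), with log2 fold changes from -0.62 (LSS) to -1.45 (MSMO1). MSMO1 had 18.0, 15.8 and 18.2 TPM in D308N cells and 51.0, 48.1 and 48.1 TPM in shRPL3 cells, so that the level was far lower in every D308N library (-1.45, SE 0.24, adjusted p = 0.00012). SQLE had 30.5, 26.8 and 27.3 TPM in D308N cells and 58.4, 62.0 and 61.1 TPM in shRPL3 cells (-1.08, SE 0.10, adjusted p = 9.24e-08). TM7SF2 was at -0.20 (SE 0.23, adjusted p = 0.604), its 95% interval -0.67 to 0.26, and with kind as a term the count was again 7 of 8 (22.2%). MSMO1 made up 7.91% ± 0.554 of the summed level of the 8 genes in D308N cells and 11.9% ± 0.358 in shRPL3 cells (SD, n = 3 each).

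In D308V cells 6 of 8 were lower than in shRPL3 cells (11.1%), all but LSS (-0.36, SE 0.14, adjusted p = 0.0682) and TM7SF2 (-0.58, SE 0.23, adjusted p = 0.0839), and with kind as a term 8 of 8 (22.4%). HSD17B7 had 7.80, 6.33 and 6.03 TPM in D308V cells and 11.5, 15.0 and 13.2 TPM in shRPL3 cells, on the log2 scale a change of -0.88 (SE 0.15, adjusted p = 0.000185). In P291L cells FDFT1 (-0.34), SQLE (-0.40) and CYP51A1 (-0.44) were lower, 3 of 8 (15.0%, all-gene median -0.10), and with kind as a term LSS and NSDHL too, 5 of 8 (27.3%). MSMO1 had 46.9, 47.6 and 45.7 TPM in P291L cells and 51.0, 48.1 and 48.1 TPM in shRPL3 cells, with a 95% interval of the log2 difference of -0.56 to 0.42. In R343W cells CYP51A1 (-0.45) and HSD17B7 (-0.62) were lower, 2 of 8 (12.4%), and with kind as a term 6 of 8 (22.8%), all but SQLE and TM7SF2.

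The rest of the pathway gives the frame for these values. Of 9 mevalonate pathway enzymes, 7 were lower in shRPL3 than in shScramble cells, where 18.0% of all genes tested were lower. Among them were ACAT2 (-1.43) and HMGCS1 (-2.36), which make the first intermediates of the pathway. PMVK and GGPS1, singled out after their values were seen, were at -0.12 and 0.12 and not past the threshold. Of 6 genes of the final steps and the carbon-4 scaffold, 5 were lower in the pooled fit. Among them were EBP (-1.24), SC5D (-1.23) and DHCR7 (-2.19), which act on the sterol after the carbon-4 steps. The count was 6 both with kind as a term (3539 of 14426 genes lower) and with median-ratio scaling (2795 of 14426). The gene not past the threshold in the pooled fit was LBR, a nuclear envelope protein that catalyses the same reduction as TM7SF2 and was singled out after its values were seen: it had 61.5, 67.3 and 62.5 TPM in shRPL3 cells and 85.1, 78.0 and 78.6 TPM in shScramble cells, at -0.33 (SE 0.15, adjusted p = 0.0815) pooled and -0.33 (SE 0.07, adjusted p = 0.000227) with kind as a term. ERG28, the scaffold that holds the carbon-4 enzymes together and also singled out afterwards, was at -1.37 (SE 0.09, adjusted p = 7.97e-11). Of 12 genes for SREBP control and sterol uptake, 8 were lower, SREBF1 (-0.64) and SREBF2 (-1.39) among them and SCAP (-0.12) not. Of 6 listed LXR and efflux genes 4 were tested and 1, SMPDL3A, was lower; the LXR genes NR1H3 and NR1H2 were at -0.26 and 0.35.

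In D308N against shRPL3 cells 12.4% of all genes tested were lower. The counts of lower genes were 7 of 9 for the mevalonate enzymes, 6 of 6 for the final steps and 7 of 12 for SREBP control and uptake. The median log2 fold changes of these lists were -0.94, -0.72 and -0.67. HMGCS1 (-1.54), DHCR7 (-1.36) and SREBF2 (-1.09) were each below the median of their list and were not its first gene. In R343W against shRPL3 cells 12.4% of all genes tested were lower. The counts of lower genes were 7 of 9 for the mevalonate enzymes, 2 of 6 for the final steps and 4 of 12 for SREBP control and uptake. Of the last list 1 more was higher, as were 1041 of 14426 genes. The list medians were -0.50, -0.37 and -0.26, with HMGCS1 at -0.78 and SREBF2 at -0.08 (adjusted p = 0.784). In the libraries labelled R161W against RPL3L-WT cells, 16.1% of all genes tested were higher within kinds. Of the lists, 7 of 9 mevalonate enzymes, 5 of 6 final genes and 9 of 12 SREBP control genes were higher, against 8 of 8 of the squalene to carbon-4 genes.

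Over the 10 group means, the 4 protein-coding genes most like the mean profile of the 8 were HMGCS1 (r = 0.996), UBXN2B (0.995), IDI1 (0.995) and FDPS (0.994), out of 11387 compared. HMGCS1, IDI1 and FDPS are mevalonate pathway enzymes. These correlations are descriptions over 10 points in which shScramble stands far from the rest, and 553 genes had an r of at least 0.9; without shScramble, over 9 means, the 4 values were 0.990, 0.984, 0.985 and 0.981 in the same order. Each of the 8 was likewise set against the mean of the other 7: r was 0.962 to 0.990 for 7 of them and 0.889 for TM7SF2, and without shScramble TM7SF2 was at 0.651 and the others at 0.912 to 0.969. RPL3 had an r of 0.831 with the profile of the 8, rank 1209, and 0.692 without shScramble.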

How the data were processed

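PolyA RNA of 30 whole-cell libraries was sequenced after TruSeq library construction, per the labels' protocols; 12 nuclear libraries and the rRNA table were not used. Of the tools in the submitters' processing notes, bcl2fastq has a version (2.19), and kallisto, bedtools and Bowtie have none; which of them made the table is not stated, and neither index, annotation nor build is given in the sources used here. TPM were deposited by the authors for each gene, summing to 1000000 in each library, so the read depth of a library is unknown. Besides 60606 genes, 6 construct sequences made up the 60612 entries. TPM are scaled to a fixed total, so a fold change is relative to the other RNAs of a library.

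Values were taken to log2(TPM + 1), and the 14426 genes with a mean of at least 1 TPM over the 30 libraries were fitted with limma 3.58.1 in R 4.3.3 (1 model over 10 groups of 3, eBayes with trend and robust, two-sided, Benjamini-Hochberg over genes within a comparison, threshold 0.05). A fold change on this scale understates the change of genes at a few TPM. Kinds of library were set by the widest gap on the first principal component of log2(TPM + 1) of 334 pseudogenes. The code of the fit was checked on simulated data with independent noise and no kinds of library, so that check does not cover the kinds. Alternatives were a pseudocount of 0.1, no filter, median-ratio scaling, kind as a term, first-kind libraries only, the replicate number as a block, and leaving out each library. All 8 genes are named in every comparison; from each other list the first genes in list order are named, and genes chosen after their values were seen are marked so. A gene that falls under these rules is not reported here. Gene positions are from GENCODE 29 (GRCh38), not necessarily the authors' annotation, and promoters from RefSeq. The members, lists and comparisons were chosen with earlier results of these data known.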

Additional observations from a re-analysis of the deposited data

How the results depend on the processing

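The 8 genes were lower in shRPL3 and RPL3L-WT cells against shScramble cells, and higher in the libraries labelled R161W against RPL3L-WT cells, under each alternative run, with 8 of 8 called except that median-ratio scaling left 7 of 8 higher in the libraries labelled R161W (CYP51A1 at 0.32, adjusted p = 0.0636). With median-ratio scaling, 1225 of 14426 genes were higher in the libraries labelled R161W. The other counts of called genes kept within 1.5 times their value except as follows. Brackets hold all genes called in the same direction. With no filter on low values, 39832 genes were tested. Against RPL3L-WT, G27D then gave 2 (244 lower), T189M 1 (180 higher) and R343W 0 (1286 lower). With median-ratio scaling, RPL3L-WT against shRPL3 gave 1 (1697 of 14426 lower) and R343W against RPL3L-WT 2 (2329 lower). P291L against shRPL3 gave 1 (1153 lower) and D308N against D308V 2 (275 lower). With kind as a term, P291L against RPL3L-WT gave 1 (1.16%), T189M against RPL3L-WT 7 (7.51%) and R343W against RPL3L-WT 2 (12.6%). P291L against shRPL3 gave 5 (27.3%), R343W against shRPL3 6 (22.8%) and D308N against D308V 3 (4.19%). With first-kind libraries only, the counts of RPL3L-WT against shRPL3 and of P291L, T189M and R343W against RPL3L-WT also moved. They rest on 1 RPL3L-WT library. The causes were not tested.

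Among genes past the threshold in at least 1 of the 2 fits compared, the direction turned for MSMO1 in RPL3L-WT against shRPL3 (0.0323 with first-kind libraries only), for NSDHL in R343W against RPL3L-WT (-0.17 with kind as a term, -0.22 with first-kind libraries only) and for MSMO1 in R343W against RPL3L-WT (-0.44 with first-kind libraries only). Genes past it in neither fit changed sign in 7 cases with median-ratio scaling, 9 with kind as a term and 7 with first-kind libraries only, among them TM7SF2 in D308N against RPL3L-WT (-0.12 with kind as a term), LSS in D308V against RPL3L-WT (-0.04 with kind as a term), SQLE in RPL3L-WT against shRPL3 (0.04 with median-ratio scaling) and FDFT1 in R343W against RPL3L-WT in all 3. A pseudocount of 0.1 changed no call.

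Leaving out 1 library at a time gave counts of 1 to 4 for RPL3L-WT against shRPL3, 0 to 2 for P291L, 2 to 4 for G27D, 0 to 7 for T189M, 4 to 6 for D308N, 3 to 4 for D308V and 0 to 2 for R343W, each against RPL3L-WT, 7 to 8 for R161W against shScramble and 2 to 3 for P291L against shRPL3. The other counts stayed as they were: 7 for D308N, 6 for D308V and 2 for R343W, each against shRPL3, and 0 for D308N against D308V. For fits that leave out a library, here and above, no share of all genes is at hand.

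Same-numbered libraries did not deviate together (median r of -0.00311 over 135 pairs, of which 10 were over 0.1, and in 33 of 96 cases a library correlated best with its own number), so the numbers were not taken as a pairing. With the replicate block, the counts were 8 for shRPL3 against shScramble (2566 of 14426 genes lower) and 4 for RPL3L-WT against shRPL3 (4290 lower). The count was 3 for T189M against RPL3L-WT (205 higher), and the other 13 comparisons kept their counts.

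TPM hide the depth of a library, so no counting error can be set beside a value. TM7SF2, at a few TPM in most groups, had the widest intervals with MSMO1 in the pooled fit. With kind as a term those of MSMO1 were no longer among the widest. A gene that missed the threshold is not shown to be equal between groups, and 1 first-kind RPL3L-WT library is all that the first-kind comparisons with RPL3L-WT rest on.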
